A study of Homo sapiens with 9 samples.

Results

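Glycolysis, glucose transport and gluconeogenesis were followed in Huh7 cells through 39 listed genes, taken as the genes whose probe sets carry exactly 1 gene symbol that is on the list. Of these, 37 were measured by 79 tested probe sets, out of 19775 genes and 54613 tested probe sets on the array. SLC16A1 and SLC16A3, the carriers that export and import lactate, were not analysed here. Huh7 is an established human hepatocellular carcinoma cell line. It was treated in culture with PGG (pentagalloylglucose, a gallotannin with a glucose core) at 0.1 mg/ml in PBS for 6 or 48 h, or with PBS alone for 48 h. Each of the 3 groups was hybridised to 3 arrays of separate biological replicates, the labels name no genetic change, and all arrays come from this 1 cell line. The 3 control arrays are titled as PBS at 48 h, and their descriptions give 0 h of PGG. No array of PBS at 6 h was used, so the 6 h comparison also differs from its control in time in culture.

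Glycolysis splits glucose into pyruvate in the cytosol. Its committed step, phosphofructokinase, is pushed forward by fructose 2,6-bisphosphate, which the bifunctional PFKFB enzymes make and break down. Pyruvate either becomes lactate or enters mitochondria through pyruvate dehydrogenase, which the PDK kinases switch off. Gluconeogenesis runs the path backwards in liver and passes through phosphoenolpyruvate carboxykinase. Hepatocytes characteristically use GLUT2, glucokinase, liver-type pyruvate kinase and aldolase B, whereas hepatoma cells often use GLUT1, hexokinase 2 and the M-type pyruvate kinase. Many glycolytic genes are textbook targets of the hypoxia-inducible factors and of MYC, and TXNIP and ARRDC4 are read as sensors of glucose phosphates because the transcription factor MondoA drives them.

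The values are log2 signals of robust multi-array averaging (RMA), so a difference of 1 is a doubling, and the medians of the arrays lay between 5.16 and 5.2 with the highest signals at 14.0 to 14.07. Hepatocyte and hepatoma markers were strong, with group means of 7.06 to 13.5 over the 10 markers measured, as in ALB and AFP. Endothelial and fibroblast markers lay at 3.26 to 7.52, and of the 4 immune markers measured LYZ was high, at 12.1 in PBS. Of the probe sets that control for RNA integrity, those of ACTB stood apart at 48 h and those of GAPDH did so on replicate 2. The 3′ minus 5′ control difference of ACTB was 1.35 ± 0.34 (SD, n = 3) in PBS, 1.17 ± 0.05 at 6 h and 2.95 ± 0.97 at 48 h, and that of GAPDH was 0.26 ± 0.12, 0.22 ± 0.03 and 0.83 ± 0.87, with replicate 2 at 48 h alone at 1.83. That array lay more than 0.5 log2 below both other 48 h arrays in 6 of the 79 member probe sets (7.59%) against 1.75% of all probe sets, a measure chosen after the data were seen. The part of RNA quality in the 48 h results was not tested, beyond 2 fits. 1 left out this array, and the other, also chosen after the data were seen, took the GAPDH control difference as a covariate. Each gave 22 members higher and 6 lower at 48 h. Both bear mainly on replicate 2, so neither can take up the ACTB difference shared by the 48 h arrays. Arrays of bulk RNA cannot tell fewer expressing cells from less RNA per cell.

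More members rose than fell at each time. A gene is represented by its probe set of highest mean and called at an adjusted p under 0.05 (limma, Benjamini-Hochberg over all probe sets). At 6 h, 19 of 37 genes rose and 5 fell, against 15.5% of all genes higher and 15.5% lower. The median log2 difference was 0.28 over the members and 0.01 over all genes. At 48 h, 22 rose and 6 fell, against 22.9% of all genes higher and 23.2% lower, with medians of 0.49 and -0.02. Between the times, 16 were higher and 8 lower at 48 h than at 6 h, against 22.4% and 22% of all genes, or 44.4% in either direction. By probe set, 36 of 79 were higher and 7 lower at 6 h (12.2% and 12.5% of all probe sets), and 37 and 14 at 48 h (18.8% and 20.2%). The shares over all genes were not matched to the members for signal. The member list was chosen with earlier results of these data known.

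The stricter threshold of the study asks for a log2 difference beyond 1.5 with an adjusted p under 0.005. It was passed at 6 h by PFKFB3 and PFKFB4 upward and by TXNIP and ARRDC4 downward, where 0.349% of all genes passed it upward and 0.541% downward. At 48 h it was passed upward by 9 members (HK2, PFKFB2, PFKFB3, PFKFB4, ALDOC, ENO2, PDK1, PDK4 and PCK1) and downward by PFKM and PCK2, against 3.09% and 2.12% of all genes. With the mean of all probe sets of a gene, 5 members in place of 9 passed it upward at 48 h. Between the times, 7 members passed it higher and 1 lower at 48 h than at 6 h, against 2.53% and 1.56% of all genes, or 4.09% in either direction. The comparisons share the PBS arrays, so their values are set side by side below and their overlap is not used.

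**Figure D1:**
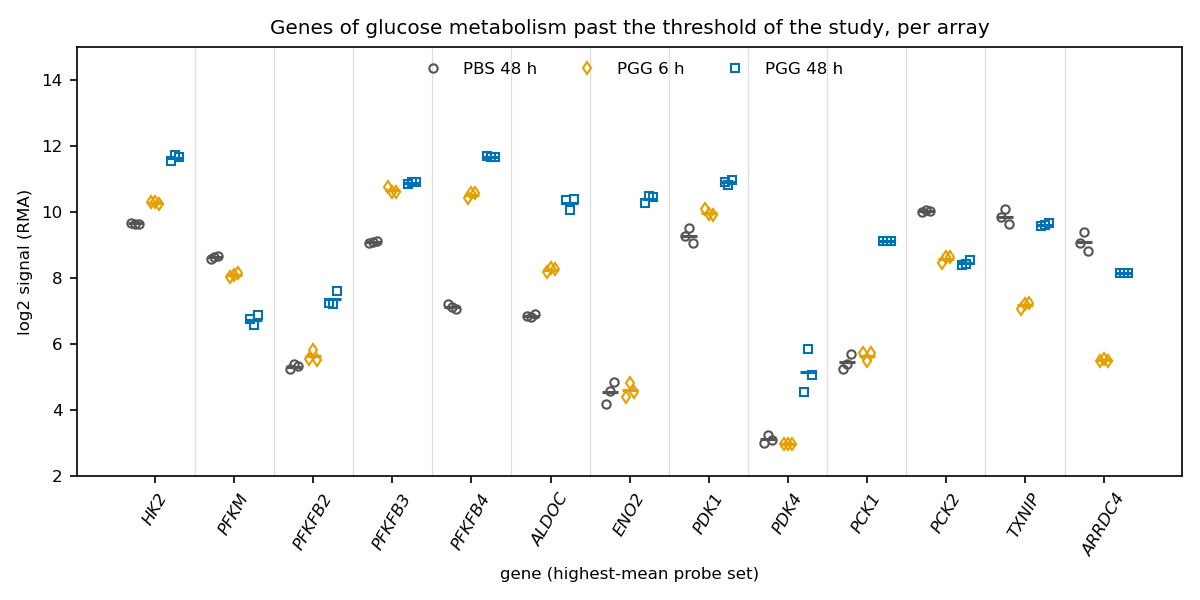
Log2 signal (y axis) of the 13 genes past the threshold of the study against PBS at 6 or 48 h (x axis), with open symbols for single arrays, 3 per group, and short lines for group means. ENO2 and PCK1 sat with PBS at 6 h and far above it at 48 h, whereas TXNIP sat far below PBS at 6 h and beside it at 48 h.

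Promoters of the members with the largest changes are shown with the letters searched in them. RefSeq promoter windows of 300 bases around a start site on GRCh38.p14 were matched for 35 of the listed genes (68 windows). PCK1, PFKFB2, SLC2A3 and SLC16A1 had no entry. The motifs were ACGTG and GCGTG, the core letters of the hypoxia response element, CACGTG, the E-box, which contains ACGTG on both strands, and CCAAT, each on both strands. ACGTG stood in 36.8% of member windows and 21.4% of all 35116, GCGTG in 39.7% and 36.5%, CACGTG in 13.2% and 7.26%, and CCAAT in 30.9% and 34.6%. ENO2, PFKFB4 and ALDOC are printed because they had the largest 48 h rises of genes with a window, and TXNIP and ARRDC4 because they had the largest falls at 6 h. The lines give the 250 bases before the start site, 5′ to 3′ on the gene's strand, with the matches of the first 3 motifs on either strand in capitals, so that a capital CACGT or CACGC is a match on the other strand. TXNIP has 2 windows, of which the 1 with the more upstream start is given.
ENO2 (chr12:6914330-6914579, plus strand): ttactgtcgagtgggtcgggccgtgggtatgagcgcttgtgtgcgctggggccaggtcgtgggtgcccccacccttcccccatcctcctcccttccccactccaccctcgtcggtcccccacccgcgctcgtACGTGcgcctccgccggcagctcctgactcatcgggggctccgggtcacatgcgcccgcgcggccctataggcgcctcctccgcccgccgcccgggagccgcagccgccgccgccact
PFKFB4 (chr3:48556804-48557053, minus strand): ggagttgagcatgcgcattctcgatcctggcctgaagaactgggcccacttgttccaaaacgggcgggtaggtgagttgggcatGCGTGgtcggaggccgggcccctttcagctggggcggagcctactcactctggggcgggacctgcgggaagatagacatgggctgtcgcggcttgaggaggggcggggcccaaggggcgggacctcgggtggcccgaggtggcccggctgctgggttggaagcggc
ALDOC (chr17:28576896-28577145, minus strand): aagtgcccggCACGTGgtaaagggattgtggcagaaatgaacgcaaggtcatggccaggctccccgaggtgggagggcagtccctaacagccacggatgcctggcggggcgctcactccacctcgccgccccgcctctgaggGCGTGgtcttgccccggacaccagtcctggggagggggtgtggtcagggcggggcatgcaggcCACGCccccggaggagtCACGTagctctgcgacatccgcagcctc
TXNIP (chr1:145996580-145996829, minus strand): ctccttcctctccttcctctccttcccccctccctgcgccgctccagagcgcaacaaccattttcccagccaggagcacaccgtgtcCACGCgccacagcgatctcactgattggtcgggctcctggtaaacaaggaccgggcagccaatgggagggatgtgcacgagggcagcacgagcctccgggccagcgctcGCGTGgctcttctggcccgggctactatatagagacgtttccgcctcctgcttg
ARRDC4 (chr15:97960453-97960702, plus strand): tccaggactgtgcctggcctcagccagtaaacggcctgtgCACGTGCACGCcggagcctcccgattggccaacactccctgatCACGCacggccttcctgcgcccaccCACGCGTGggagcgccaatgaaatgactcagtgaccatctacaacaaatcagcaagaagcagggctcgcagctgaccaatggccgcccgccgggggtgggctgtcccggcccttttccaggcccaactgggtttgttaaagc
ENO2 had 1 ACGTG, 118 bases before its start, and PFKFB4 had 1 GCGTG, 166 bases before it. ALDOC and ARRDC4 each held a CACGTG, at 240 and 210 bases before the start, among several other matches. The printed TXNIP window held GCGTG on either strand, at 163 and 54 bases. A match describes letters only, and no binding was measured here.

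Of the 3 listed glucose transporters, GLUT1 was called higher at both times and the others were not called. SLC2A1, which encodes the basal transporter GLUT1, gave 7.19, 7.35 and 7.39 on the PBS arrays, 8.56, 8.56 and 8.69 at 6 h and 8.69, 8.76 and 8.67 at 48 h. Both PGG groups lay above all PBS arrays and overlapped each other. The log2 difference was 1.29 (SE 0.074, adjusted p = 6.1e-07) at 6 h and 1.40 (SE 0.074, adjusted p = 6.3e-08) at 48 h, a 2.45-fold and a 2.63-fold rise. SLC2A2, for the hepatocyte transporter GLUT2, was dim at 4.48, 4.23 and 4.20 in PBS, 4.12, 4.33 and 4.22 at 6 h and 4.11, 4.39 and 4.17 at 48 h. Its groups overlapped, with a log2 difference of -0.08 at 6 h and -0.08 at 48 h. SLC2A3, for the high-affinity GLUT3, gave 5.15, 5.20 and 5.11 in PBS, 5.20, 5.25 and 5.20 at 6 h and 5.44, 5.31 and 5.26 at 48 h. The 48 h arrays all lay above PBS, by 0.18 on the log2 scale, and missed the call at an adjusted p of 0.051. Relative to SLC2A1 on the same array, both SLC2A2 and SLC2A3 signals were lower in every PGG array than in every PBS array.

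Glucose is trapped in the cell by hexokinase. HK2, the inducible hexokinase of tumours, stood at 9.67, 9.65 and 9.65 in PBS, 10.29, 10.29 and 10.23 at 6 h and 11.55, 11.73 and 11.66 at 48 h, and no group overlapped another. Its log2 difference was 0.61 (SE 0.065, adjusted p = 4.4e-05) at 6 h and 1.99 (SE 0.065, adjusted p = 2.6e-09) at 48 h. Another 2 HK2 probe sets fell at 48 h: 222305_at read 6.10, 5.91 and 5.80 in PBS and 5.06, 5.08 and 5.07 at 48 h, and 239410_at differed by -0.72. With the mean of the 3 HK2 probe sets the difference was 0.11 at 6 h and 0.13 at 48 h and the calls were lost, so the HK2 rise rests on the brightest probe set. HK1, the widely expressed form, gave 6.52, 6.41 and 6.70 in PBS, 6.60, 6.65 and 6.70 at 6 h and 7.64, 7.92 and 7.37 at 48 h. It overlapped PBS at 6 h and lay wholly above it at 48 h, by 1.10 (SE 0.13, adjusted p = 2.7e-05). GPI, which turns glucose 6-phosphate into fructose 6-phosphate, rose by 0.37 at 6 h and 0.30 at 48 h.

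The phosphofructokinase subunits went in different directions at 48 h. PFKM, the muscle-type subunit, gave 8.59, 8.65 and 8.66 in PBS, 8.04, 8.10 and 8.16 at 6 h and 6.77, 6.59 and 6.87 at 48 h, in 3 separate bands. It fell by 0.53 at 6 h (SE 0.079, adjusted p = 0.00046) and by 1.89 at 48 h (SE 0.079, adjusted p = 1.2e-08), to a signal 3.71-fold lower. PFKL, the liver-type subunit, read 7.75, 7.78 and 7.73 in PBS, 8.06, 7.95 and 7.89 at 6 h and 7.14, 6.41 and 7.02 at 48 h. All 48 h arrays were below PBS, with replicate 2, the array of poorest GAPDH control, lowest. Its difference was -0.90 (SE 0.15, adjusted p = 0.00061) at 48 h and 0.21 at 6 h (adjusted p = 0.39), and without replicate 2 the 48 h difference was -0.67 (adjusted p = 4.3e-05). The 48 h call was lost with the methods' t-test (adjusted p = 0.057), and the 6 h difference was called without that array (adjusted p = 0.04) and with the 6 arrays of PBS and 6 h alone (adjusted p = 0.041). PFKP, the platelet-type subunit, read 5.73, 5.53 and 5.67 in PBS, 5.76, 5.91 and 5.82 at 6 h and 6.56, 6.95 and 6.43 at 48 h. It was called higher at 48 h, by 1.00 (SE 0.12, adjusted p = 3.9e-05), and not at 6 h, at 0.19. Within arrays the PFKP minus PFKL signal changed by 1.90 from PBS to 48 h and by -0.03 to 6 h, and PFKM minus PFKL changed by -0.99 and -0.75. The exact 2-sided permutation test of such a change cannot go below p = 0.1 with 3 arrays against 3. Of 51 tests over 17 isoform pairs and 3 comparisons, 44 reached that p, which adjusted to 0.12 at the lowest.

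The enzymes of fructose 2,6-bisphosphate held both rises past the study threshold at 6 h. PFKFB4, which makes and breaks this activator of phosphofructokinase and is known to be induced in hypoxia, read 7.22, 7.12 and 7.06 in PBS, 10.44, 10.57 and 10.57 at 6 h and 11.69, 11.67 and 11.66 at 48 h. Its groups were wide apart and its arrays within a group close together. The log2 difference was 3.39 (SE 0.068, adjusted p = 2.1e-09) at 6 h and 4.54 (SE 0.068, adjusted p = 1e-10) at 48 h, or 10.5-fold and 23.3-fold. The other PFKFB4 probe set, 206246_at, rose less, by 1.42 and 1.88, and was lowest in replicate 2 of the 48 h arrays, with 7.73, 6.18 and 7.18. PFKFB3, the form with the strongest kinase activity, read 9.05, 9.08 and 9.11 in PBS, 10.76, 10.61 and 10.61 at 6 h and 10.85, 10.90 and 10.90 at 48 h. Most of its rise was present at 6 h, 1.58 (SE 0.065, adjusted p = 7.7e-08), against 1.80 (SE 0.065, adjusted p = 4.7e-09) at 48 h. PFKFB2, known from heart, read 5.24, 5.39 and 5.33 in PBS, 5.56, 5.81 and 5.51 at 6 h and 7.25, 7.23 and 7.62 at 48 h. It missed the call at 6 h, at 0.31 (adjusted p = 0.081), unless replicate 3 of PGG at 48 h was left out (adjusted p = 0.031) or only the 6 arrays of PBS and 6 h were fitted (adjusted p = 0.037), and rose by 2.05 (SE 0.11, adjusted p = 9.6e-08) at 48 h. Of its 4 probe sets, 226733_at and 209992_at rose by 2.05 and 1.89 at 48 h, while 207931_s_at and 238450_at differed by 0.08 and 0.07.

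Aldolase splits fructose 1,6-bisphosphate. ALDOC, the brain-type aldolase, read 6.85, 6.82 and 6.91 in PBS, 8.18, 8.32 and 8.27 at 6 h and 10.37, 10.06 and 10.40 at 48 h, rising by 1.40 (SE 0.092, adjusted p = 1.6e-06) and then by 3.42 (SE 0.092, adjusted p = 1e-09), a 10.7-fold change. ALDOA, the muscle-type aldolase, was near the top of the scale, at 12.02, 12.20 and 12.12 in PBS, 12.66, 12.70 and 12.73 at 6 h and 12.70, 12.66 and 12.79 at 48 h. It rose by 0.58 at 6 h and 0.60 at 48 h, and within arrays ALDOC gained 0.81 and 2.81 on ALDOA. TPI1, the triose phosphate isomerase, rose at 6 h by 0.42 (adjusted p = 0.0018) and stood at -0.07 at 48 h.

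**Figure D2:**
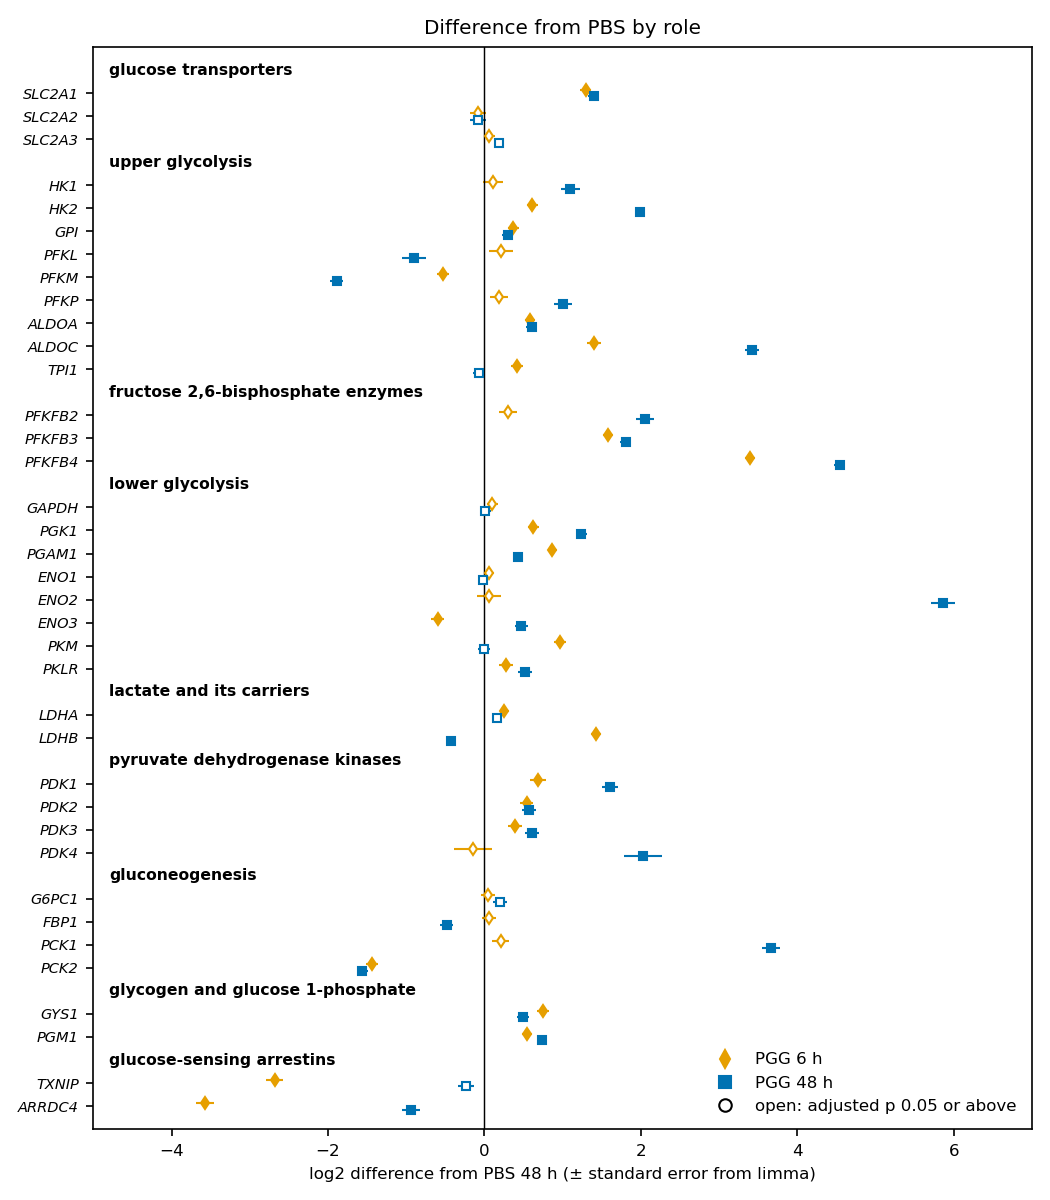
Log2 difference from PBS (x axis) of the 37 measured genes (y axis, by role) at 6 h (diamonds) and 48 h (squares), with bars for the standard error from limma and open symbols for an adjusted p of 0.05 or above. On the brightest probe set of each, the 3 PFKFB genes and the 4 PDK genes were all higher at 48 h. Other probe sets of PFKFB2, PDK2, PDK3 and PDK4 were not all called higher, and that of PDK2 was called lower. ENO2 was the most changed, at 5.86, from a PBS signal below the dim limit of 5.

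The largest rise among the members was in lower glycolysis, from a dim signal. ENO2, the neuronal enolase, read 4.20, 4.58 and 4.84 in PBS, 4.41, 4.83 and 4.56 at 6 h and 10.27, 10.49 and 10.45 at 48 h. The 6 h arrays overlapped PBS, at a difference of 0.06, and the 48 h arrays lay 5.86 (SE 0.15, adjusted p = 8.8e-10) above it. The means of 4.54 in PBS and 4.60 at 6 h lay below 5, taken here as the limit of a dim signal, so 5.86 is a difference of signals and its size depends on the floor of the array. Counted from the limit itself the 48 h mean was 5.40 higher, 42.3-fold, still above the rise of any other member (4.54 in PFKFB4). ENO1, the major enolase, gave 12.74, 12.75 and 12.76 in PBS, 12.79, 12.83 and 12.81 at 6 h and 12.78, 12.67 and 12.76 at 48 h on its brightest probe set. Its differences were 0.06 and -0.01, near the top of the scale. Another ENO1 probe set, 217294_s_at, read 11.96, 9.87 and 11.56 at 48 h, with replicate 2 far below, and was not called (adjusted p = 0.12). ENO3, the muscle enolase, read 7.18, 7.33 and 7.33 in PBS, 6.59, 6.85 and 6.60 at 6 h and 7.75, 7.77 and 7.74 at 48 h, without overlap, so that it fell at 6 h (-0.60, SE 0.082, adjusted p = 0.00027) and rose at 48 h (0.47, SE 0.082, adjusted p = 0.00068).

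PGK1, which makes the first ATP of the pathway, rose by 0.62 at 6 h and 1.24 at 48 h. PGAM1, the phosphoglycerate mutase, rose by 0.87 and 0.42, and was lower at 48 h than at 6 h (adjusted p = 0.00015). GAPDH, often used as a reference gene, stood at 13.46 to 13.69 on all arrays on its brightest probe set and was not called at either time (0.10 and 0.01), at the top of the scale. PKM, pyruvate kinase of muscle and tumours, read 11.18, 11.23 and 11.40 in PBS, 12.16, 12.28 and 12.27 at 6 h and 11.36, 11.23 and 11.21 at 48 h. It rose at 6 h by 0.97 (SE 0.078, adjusted p = 6.6e-06) and overlapped PBS again at 48 h. PKLR, the liver and red cell form, read 5.68, 5.68 and 5.46 in PBS, 5.82, 5.93 and 5.90 at 6 h and 6.20, 5.96 and 6.23 at 48 h. Its rise was 0.52 (SE 0.091, adjusted p = 0.00069) at 48 h, while its 6 h call (0.28, adjusted p = 0.048) was lost when any 1 array but replicate 2 of PGG at 48 h was left out.

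Of the 2 lactate dehydrogenase subunits, LDHB was higher at 6 h and lower at 48 h than in PBS. This heart-type subunit read 9.08, 9.12 and 9.12 in PBS, 10.47, 10.55 and 10.58 at 6 h and 8.74, 8.66 and 8.62 at 48 h. It rose at 6 h (1.43, SE 0.063, adjusted p = 1.2e-07) and was below every PBS array at 48 h, having fallen by 0.43 (SE 0.063, adjusted p = 0.00018). LDHA, the muscle-type subunit, read 13.12, 13.16 and 13.07 in PBS, 13.37, 13.37 and 13.37 at 6 h and 13.25, 13.32 and 13.26 at 48 h. It rose at 6 h by 0.25 and missed the call at 48 h, at 0.16 (adjusted p = 0.052), close to the top of the scale. Within arrays LDHA lost 1.17 on LDHB at 6 h and gained 0.59 at 48 h, with no overlap between groups either time.

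**Figure D3:**
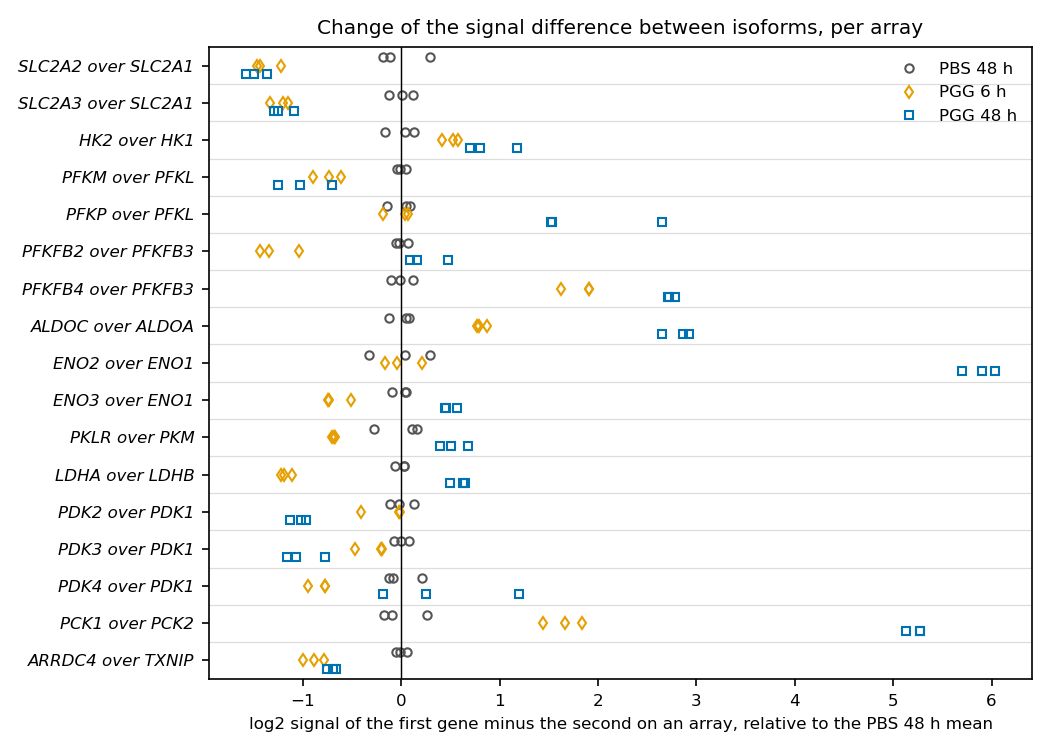
Difference between the log2 signals of 2 isoforms on an array, set relative to its mean in PBS (x axis), for the 17 measured pairs (y axis), with 1 symbol per array and 3 arrays per group. At 48 h ENO2 over ENO1 and PCK1 over PCK2 had moved furthest, by 5.88 and 5.23, the first with ENO2 dim in PBS and ENO1 near the top of the scale, and LDHA over LDHB lay on opposite sides of PBS at 6 and 48 h.

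All 4 pyruvate dehydrogenase kinases, which close the entry of pyruvate into the citric acid cycle, were higher at 48 h, and 3 of 4 at 6 h, on the brightest probe set of each. PDK1, the form known for its induction in hypoxia, read 9.29, 9.51 and 9.07 in PBS, 10.09, 9.93 and 9.91 at 6 h and 10.90, 10.82 and 10.97 at 48 h, a rise of 0.69 (SE 0.11, adjusted p = 0.0006) and then 1.61 (SE 0.11, adjusted p = 3.2e-07). Its groups did not overlap. PDK4, the form known from fasting, was dim, at 2.99, 3.25 and 3.11 in PBS, 2.97, 2.98 and 2.96 at 6 h and 4.54, 5.84 and 5.05 at 48 h. All 48 h arrays were above PBS, with a wide spread, and the rise was 2.03 (SE 0.24, adjusted p = 4.2e-05), from PBS signals below the dim limit to a 48 h mean 0.14 above it. It was seen on 1 of 3 PDK4 probe sets: 1562321_at and 205960_at differed by 0.11 and 0.02. PDK2 read 5.95, 6.08 and 5.88 in PBS, 6.36, 6.59 and 6.58 at 6 h and 6.45, 6.53 and 6.63 at 48 h, rising by 0.54 and 0.57. Its other probe set, 202590_s_at, rose at 6 h by 0.31 and was lower at 48 h, at -0.25 (adjusted p = 0.021), and with the mean of both sets the 48 h call was lost (0.16, adjusted p = 0.09). PDK3 read 9.28, 9.43 and 9.15 in PBS, 9.62, 9.72 and 9.71 at 6 h and 9.83, 10.04 and 9.81 at 48 h, a rise of 0.40 and 0.61, of which the 6 h call was lost with the methods' t-test (adjusted p = 0.052). Its 5 probe sets spanned 0.27 to 1.90 at 48 h.

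Probe sets of 1 gene did not always give the same call. Of the 22 members with 2 or more probe sets, all sets gave the same call in 17 at 6 h and 11 at 48 h. The other 15 members had 1 probe set each, so no second set could be compared. Among these were ENO2, PCK1, ALDOC, PFKM, PCK2, PFKFB3 and ARRDC4. HK2 and PDK2 were called in both directions at 48 h, and no member was at 6 h. Over all 10523 genes with 2 or more probe sets, 6.99% were called in both directions at 48 h and 2.96% at 6 h. Where the brightest probe set was not called at 48 h, 210050_at of TPI1 and 216554_s_at of ENO1 were lower, at -0.28 (adjusted p = 0.019) and -0.32 (adjusted p = 0.013), while 240258_at of ENO1 differed by 0.24. Where it rose at 48 h, 240202_x_at of PFKP differed by 0.08, 237691_x_at of ENO3 by -0.08, and 207858_s_at and 210451_at of PKLR by 0.07 and 0.24, and none of these was called. At 6 h the uncalled sets were 222305_at and 239410_at of HK2 at -0.21 and -0.07, 206686_at and 239798_at of PDK1 at 0.35 and 0.18, 206347_at and 230085_at of PDK3 at 0.24 and 0.07, 237691_x_at of ENO3 at -0.25 and 207858_s_at of PKLR at 0.14. Opposite signs between uncalled sets also occurred in SLC2A3, PFKFB2, PDK4, G6PC1 and GAPDH, with sizes of up to 0.31. 2 further sets annotated to both SLC2A3 and SLC2A14 were left out.

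**Figure D4:**
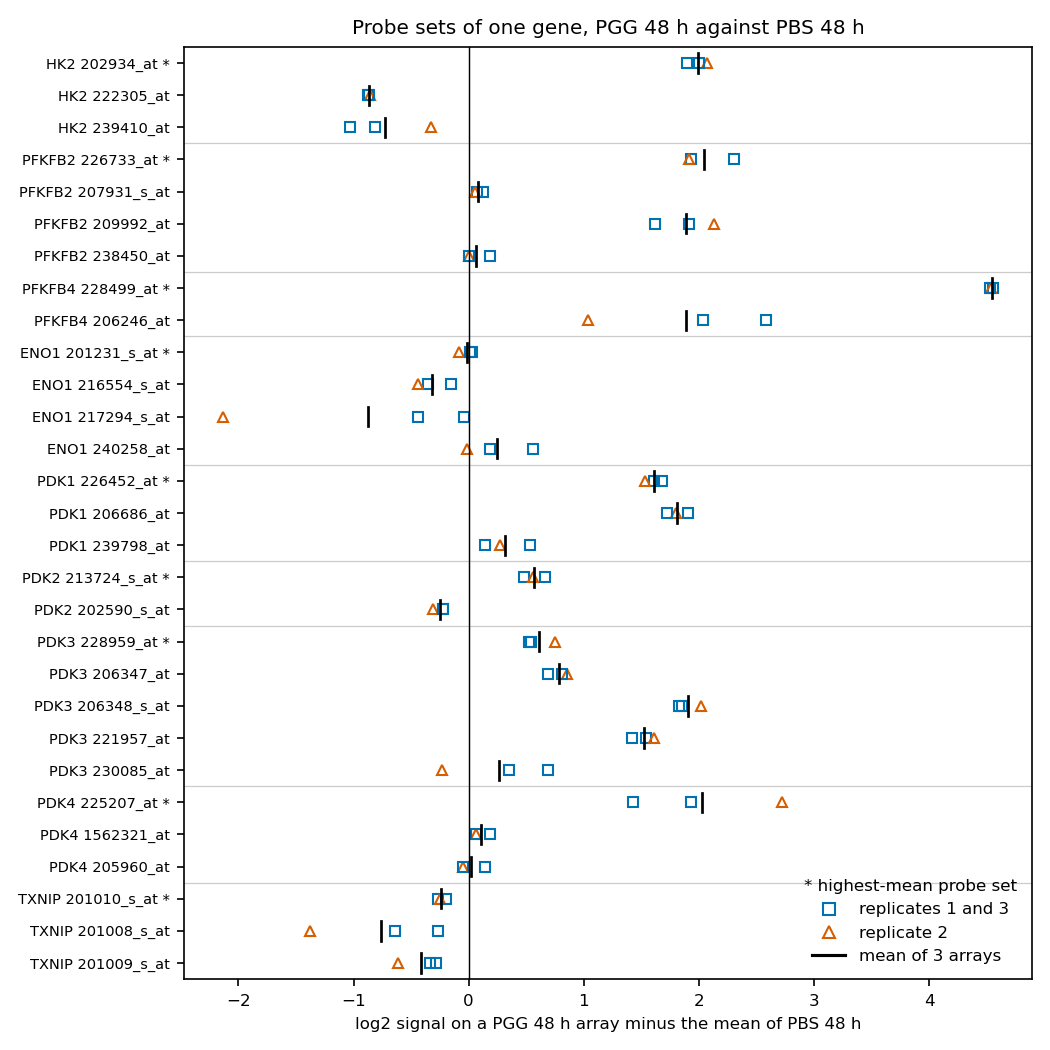
Log2 signal on each PGG 48 h array minus the PBS mean (x axis) for every tested probe set of 9 members (y axis, gene and probe set, a star for the one of highest mean), with squares for replicates 1 and 3, triangles for replicate 2 and lines for the mean of 3 arrays. HK2 has 1 probe set at 1.99 and another at -0.87, and replicate 2 falls away from the others in ENO1 217294_s_at and PFKFB4 206246_at.

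In gluconeogenesis the 2 forms of phosphoenolpyruvate carboxykinase went in opposite directions at 48 h. PCK1, the cytosolic form and a classic marker of the fasting liver, read 5.24, 5.39 and 5.71 in PBS, 5.72, 5.50 and 5.74 at 6 h and 9.11, 9.12 and 9.11 at 48 h. The 6 h arrays overlapped PBS (0.21, adjusted p = 0.24), with a call at 0.34 (adjusted p = 0.025) only without PBS replicate 3, and the 48 h arrays were tightly together, 3.67 (SE 0.11, adjusted p = 1.9e-09) above it, 12.7-fold. PCK2, the mitochondrial form and a known target of ATF4, read 9.99, 10.06 and 10.02 in PBS, 8.46, 8.64 and 8.65 at 6 h and 8.41, 8.42 and 8.56 at 48 h. Both PGG groups lay below all PBS arrays, with differences of -1.44 (SE 0.074, adjusted p = 3.2e-07) at 6 h and -1.56 (SE 0.074, adjusted p = 3e-08) at 48 h. Within arrays PCK1 gained 1.65 on PCK2 at 6 h and 5.23 at 48 h. FBP1, fructose bisphosphatase, fell at 48 h by 0.48 (adjusted p = 0.00092) and differed by 0.06 at 6 h. G6PC1, which releases free glucose in liver, was dim, at 3.91 to 4.41 on all arrays, and was not called (0.05 and 0.20), though with the mean of its probe sets it was called higher at 48 h (0.30, adjusted p = 0.0027). On the brightest probe set of each, PCK1 was the only 1 of these 4 to rise at 48 h.

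Glycogen synthase GYS1 of muscle and phosphoglucomutase PGM1, which interconverts glucose 1-phosphate and glucose 6-phosphate, rose at both times. GYS1 rose by 0.75 at 6 h and 0.49 at 48 h, and PGM1 by 0.55 and 0.74.

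The arrestins TXNIP and ARRDC4, which curb glucose uptake, fell deeply at 6 h. TXNIP read 9.84, 10.10 and 9.63 in PBS, 7.06, 7.21 and 7.26 at 6 h and 9.59, 9.61 and 9.66 at 48 h. The 6 h arrays were far below and the 48 h arrays overlapped PBS. The fall was 6.41-fold at 6 h (-2.68, SE 0.11, adjusted p = 6.9e-08), and at 48 h the difference was -0.24 (adjusted p = 0.11). It was called lower at 48 h without PBS replicate 3 (-0.35, adjusted p = 0.017) and with the mean of its probe sets (-0.47, adjusted p = 0.012). The other TXNIP probe sets, 201008_s_at and 201009_s_at, gave -2.35 and -2.27 at 6 h and -0.76 and -0.41 at 48 h, and the last of these was called (adjusted p = 0.02). ARRDC4 read 9.06, 9.39 and 8.81 in PBS, 5.50, 5.55 and 5.49 at 6 h and 8.16, 8.15 and 8.14 at 48 h. It fell by 3.57 at 6 h (SE 0.12, adjusted p = 3e-08), 11.9-fold, and by 0.94 at 48 h (SE 0.12, adjusted p = 6e-05), so that its 48 h arrays lay below PBS and above 6 h. The signal of both was higher at 48 h than at 6 h, by 2.44 (SE 0.11, adjusted p = 2.5e-08) in TXNIP and 2.64 (SE 0.12, adjusted p = 2.8e-08) in ARRDC4.

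Around these members, 98 other genes of glucose metabolism were listed and 87 measured. At 6 h, 22 rose and 16 fell, against 15.5% of all genes in each direction, and at 48 h 29 rose and 24 fell, against 22.9% and 23.2%. The medians of 0.02 and 0.01 were close to those of all genes. The lists below are small, and their 48 h counts stand beside the same 22.9% of all genes higher and 23.2% lower. The pentose phosphate branch, which supplies NADPH and ribose, had 5 of 7 measured genes lower at 48 h and 0 higher, with a median of -0.71 against -0.02 over all genes and with RPIA at -1.38, TALDO1 at -1.30 and PGLS at -0.77. In the glycogen list 8 of 19 rose and 5 fell at 48 h. PPP1R3C and PPP1R3B, which bring protein phosphatase to glycogen, rose by 2.96 and 1.57, and the branching enzyme GBE1 rose by 1.79. The glycogen primers GYG2 and GYG1 and the liver phosphorylase PYGL differed by -1.47, -1.05 and -1.10. At 6 h GYG2 was called higher, at 0.66, and PGM2L1 lower, at -1.25. Among genes of pyruvate entry into mitochondria 6 of 10 rose and 2 fell at 48 h. The rises were led by the phosphatase PDP1, which reactivates pyruvate dehydrogenase, at 1.54, its regulator PDPR at 1.36 and PDHX at 1.07, and the falls were DLD at -0.61 and PC, pyruvate carboxylase, at -0.35.

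Other glycolytic enzymes numbered 12, of which 3 rose at 48 h, led by the hexokinase HKDC1 at 1.57, with BPGM at 0.90 and ADPGK at 0.29. The 1 fall was PGAM5 at -1.03, known as a mitochondrial protein phosphatase of the mutase family and not as a glycolytic enzyme, with a 48 h mean of 4.52, below the dim limit. Of 14 other carriers, 2 rose and 2 fell at 6 h, the rises being SLC2A6 (GLUT6) at 0.98 (adjusted p = 5.9e-06) and SLC2A8 (GLUT8) at 0.42 (adjusted p = 0.011). At 48 h 2 rose (SLC2A13, the myo-inositol carrier, at 1.01 and SLC2A12 at 0.29) and 3 fell, EMB at -1.86, SLC16A7 at -1.73 and SLC2A8 at -0.89. EMB is an ancillary protein of the monocarboxylate carriers. Of 5 other gluconeogenic genes, PPARGC1A, the coactivator PGC-1alpha that drives PCK1 in fasting liver, had means of 4.79 in PBS and 3.85 at 6 h, both below the dim limit, and was called lower at 6 h. It rose to 7.96 at 48 h, 2.96 above that limit. G6PC3 fell at 48 h, at -0.26, and was called higher at 6 h, at 0.27. Hexosamine and fructose genes gave 3 rises and 2 falls of 5 at 48 h (GNPDA1 at 1.07, GFPT1 at 0.67, GNPDA2 at 0.39, TKFC at -1.08 and KHK at -0.59). GFPT1 and GNPDA2 were called lower at 6 h, at -0.36 and -0.74. The glycerol 3-phosphate list gave 1 rise at 48 h, GPD1L at 0.33, and 2 falls, GPD2 at -0.87 and GPD1 at -0.67. At 6 h GPD1L was called lower, at -0.97, and GPD1 higher, at 0.42. Among 12 regulators, MYC fell by 1.79 at 6 h and 1.86 at 48 h, HIF1A differed by -0.20 and was not called at 6 h and fell by 0.42 at 48 h, and at 48 h PPARA rose by 1.18, FOXO1 by 1.03 and MLX, the partner of MondoA, by 0.63.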

How the data were processed

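RNA of Huh7 cells (PBS for 48 h, PGG for 6 h, PGG for 48 h; 3 arrays each) had been hybridised to Affymetrix arrays. The authors deposited log2 values per probe set, made by RMA in Affymetrix Expression Console (version not given in the sources used here). Groups followed the sample titles, and 0 value columns belonged to no sample. RMA subtracts background and equalises the distributions of the arrays, and array signals understate changes near both ends of the scale. For arrays, precision rests on the 3 arrays per group.

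Gene symbols came from the platform annotation (41091 probe sets with 1 symbol, 1801 with several, 11721 with none). The 2 probe sets shared by SLC2A3 and SLC2A14 were left out, as were 62 controls. All 54613 other probe sets were fitted with limma 3.58.1 in R 4.3.3 (1 mean per group, 9 arrays), with Benjamini-Hochberg adjustment over them. The fit was tested on simulated data. The members, roles, pairs and other lists were chosen with earlier results of these data known. All members are named, those past the study threshold and in isoform pairs with each array's value. Of each other list up to 3 rises and 3 falls at 48 h are named, and some calls at 6 h. The study set its limit of 0.005 on t-test q-values, and here it was set on adjusted p-values from limma. Same-numbered arrays correlated at -0.089 to 0.162 in their deviations from the group means, so the numbers were not taken as pairs. Alternatives changed the probe set rule, filters, scaling, block, variance prior, test, array weights and arrays used. RefSeq promoters (GRCh38.p14) were searched for motifs with pandas 2.3.3. Protein sequences were not used here.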

Additional observations from a re-analysis of the deposited data

Results flagged for a closer look

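8 members differed between 48 h and 6 h of PGG past the threshold of the study (a log2 difference beyond 1.5 and, by limma, an adjusted p under 0.005), which 4.09% of all genes passed in either direction. This limit was chosen after the values were seen, and at an adjusted p under 0.05, 24 members differed, against 44.4% of all genes. The signal at 48 h minus that at 6 h was 5.80 in ENO2, 3.46 in PCK1, 2.64 in ARRDC4, 2.44 in TXNIP, 2.17 in PDK4, 2.02 in ALDOC, 1.74 in PFKFB2 and -1.86 in LDHB. ENO2 and PDK4 were below the dim limit of 5 at 6 h, so the sizes of their differences depend on the floor of the array. Since both times were set against the same PBS arrays, this is also the difference between their log2 differences from PBS. No PBS array of 6 h was used, so it can also hold a difference of time in culture. The 3′ minus 5′ control difference of ACTB was larger on all 48 h arrays than on all 6 h arrays. That of GAPDH was 1.83 on replicate 2 of 48 h and 0.27 and 0.39 on replicates 1 and 3, against 0.19 to 0.24 at 6 h. The part of RNA integrity was not tested.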

How the results depend on the processing

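Of 366 counts recomputed under the alternatives, 350 stayed within 1.5 times of the main value and 16 did not. Of 1520 recomputed differences of single members, 1481 kept their side of the threshold, 22 gained a call and 17 lost one, and 0 of the called ones reversed. Leaving out probe sets ending in _x_at or _s_at left 38 member probe sets of 22 genes. At 6 h they came to 9 genes higher and 3 lower, 1 and 1 past the study threshold, and 15 probe sets higher and 3 lower. At 48 h they came to 14 genes higher, 1 lower past the study threshold, and 23 probe sets higher and 6 lower. Between the times they came to 3 genes lower, 0 lower past the study threshold, and 18 probe sets higher and 5 lower. With the mean of all probe sets of a gene, 5 genes in place of 9 passed the study threshold upward at 48 h. The methods' t-test left 9 probe sets lower at 48 h in place of 14. At the study's own limits it passed 2 members upward and 2 downward at 6 h, and 8 and 2 at 48 h; after Benjamini-Hochberg at 0.05 it called 18 and 5, and 23 and 5. The causes were not tested beyond the fewer probe sets.

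No pairing of the arrays by replicate number was evident, and the numbers were not taken as pairs. With the replicate block, 18 members rose and 5 fell at 6 h, and 22 rose and 6 fell at 48 h; PKLR lost its 6 h call (adjusted p = 0.079). Leaving out an array gave 18 to 20 members higher and 5 lower at 6 h, 22 to 23 higher and 6 to 7 lower at 48 h, and 14 to 17 higher and 7 to 8 lower between the times. The GAPDH control covariate, chosen after seeing the data, left 19 and 5 at 6 h and 22 and 6 at 48 h. It was 1.83 on replicate 2 of PGG at 48 h and 0.13 to 0.39 on the other arrays. It therefore could not take up the ACTB control difference, which was raised on all 48 h arrays. The 48 h calls of LDHA and SLC2A3, just missed in the report, were gained under 7 and 5 alternatives, both rescalings among them. Signals near the top of the scale (GAPDH, ENO1, LDHA) and near its floor (ENO2 before 48 h, PDK4, SLC2A2, G6PC1) limit what could be seen.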
